A study of Mus musculus with 9 samples.

Results

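Described here are the genes whose transcripts in EGCG-treated aged mice lay outside everything measured in untreated mice, young or aged. A gene belongs to the set when each of the 3 treated libraries lay above all 6 untreated libraries, or below all of them. Such a difference is no return to the young level, but the treated libraries can lie past that level, on the side away from the aged ones. The deposited table held 16231 genes, 12801 of them had at least 10 counts in 3 or more libraries and were tested, and 4175 of these met the rule, which is 32.6% of the genes tested. Of them, 2121 lay above (16.6%) and 2054 below (16%), and with upper-quartile in place of TMM scaling 3116 lay above and 1432 below. The order of the libraries in these same counts chose the genes, so the absence of overlap is their definition and not a finding, and the sizes given for them are descriptions.

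RNA was sequenced from 9 mouse libraries in 3 groups of 3, labelled young, aged and EGCG, and the series' design text places the treated mice among the old ones. EGCG, epigallocatechin gallate, is the main catechin of green tea. The untreated groups were young mice and aged mice without EGCG. Ages, strain, sex, dose, route, duration and the hour of tissue collection do not appear in the labels. All 9 libraries are labelled retina. The series title names the retinal pigment epithelium and a pathway of CYFIP2, which belongs to the WAVE complex that drives actin branching, and the kinase AKT. The labels leave unsaid whether each library is a different mouse, and the design text mentions duplicates, so the p-values reflect no more than the spread among these 9 libraries and that spread may be technical.

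The label retina did not match the transcripts. The defining photoreceptor genes Rcvrn, Nrl, Crx, Prph2, Pde6a and Arr3 and the pigment epithelium genes Rpe65, Rgr, Tyr and Tyrp1 are not among the genes of the table. The summed level of 16 photoreceptor genes was 30.2 to 34.6 CPM (counts relative to the library total after TMM scaling) in young, 14.6 to 15.4 in aged and 9.49 to 9.95 in treated libraries. Gnat1, the transducin of rods, stood at 29.2 ± 2.56 CPM in young, 10.04 ± 0.327 in aged and 4.74 ± 0.709 in treated libraries (mean ± SD of 3 libraries, here and below). Other genes of retinal lists were measured. The pigment epithelium list summed to 4330 to 4550 CPM in young, 4120 to 4320 in aged and 4980 to 5180 in treated libraries. That sum was mostly Ttr, also a plasma protein gene of the list below. Mertk, Rdh5, Lrat, Dct and Mitf reached at most 22.1 CPM (before TMM scaling). Inner retinal and Mueller glia genes summed to 1420 to 1440, 1260 to 1290 and 1380 to 1410 CPM in the same order, mostly Glul. A list of 24 plasma protein genes that hepatocytes are known to transcribe summed to 256000 to 260000 CPM in young, 217000 to 221000 in aged and 221000 to 229000 in treated libraries. The members are therefore grouped by functions known from the liver. Libraries held 34240500 to 39922044 counts, TMM factors were 0.911 to 0.919 for the young, 1.049 to 1.056 for the aged and 1.027 to 1.046 for the treated libraries, and the common biological coefficient of variation was 5.37%. In bulk samples, fewer cells of a type and less RNA per cell cannot be told apart.

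As background, the circadian clock of the liver is a feedback loop: BMAL1 (gene Arntl) with CLOCK or NPAS2 drives E-box genes such as Per1, Dbp, Ciart and Bhlhe41, whose products in part repress the same pair. Metallothioneins bind zinc and copper and are induced by metals, glucocorticoids and the acute phase response. That response is the hepatic programme in which interleukin 6, acting through STAT3 and C/EBP factors, raises the transcription of secreted defence proteins. Fasting and feeding set hepatic glucose and lipid genes through insulin, FOXO factors, SREBP-1c and ChREBP.

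The treated group differed from the mean of both untreated groups in 7758 genes, 60.6% of those tested, with 3851 higher (30.1%) and 3907 lower (30.5%) in a quasi-likelihood test (edgeR) with p-values adjusted after Benjamini and Hochberg at 0.05. It differed from the aged group in 63.1% and from the young group in 62.7%, and these comparisons share the treated libraries. Aged and young libraries differed from each other in 69.3%. Calls against each untreated group in the same direction numbered 3929 (30.7%), with 1930 higher (15.1%) and 1999 lower (15.6%). The split between higher and lower depended on the scaling. With upper-quartile factors 63.5% of the calls against both groups were higher in place of 49.6%, and 67.6% of the calls against each group in place of 49.1%. Among the genes beyond all untreated libraries, 1803 of the 2121 above and 1866 of the 2054 below had such a call against each group.

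Most of these distances were small. For each gene the distance is given as the log2 fold change to the nearer of the untreated groups, which is the smaller of its changes against aged and against young. The median was 0.36 for the genes above, a 1.28-fold difference, and -0.36 for those below, a 1.29-fold difference. Under 1.2-fold lay 722 of the genes above and 706 of those below, while 558 and 546 reached 1.5-fold. At least 2-fold were 424 genes, 3.31% of those tested, of which 202 lay above (1.58%) and 222 below (1.73%). At the edge of the rule the values were nearly tied. Zfp729b was just inside, with a lowest treated value of 7.4221 CPM against a highest untreated value of 7.42161, and Ppp1r21 was just outside, with 20.6654 against 20.6658.

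**Figure D1:**
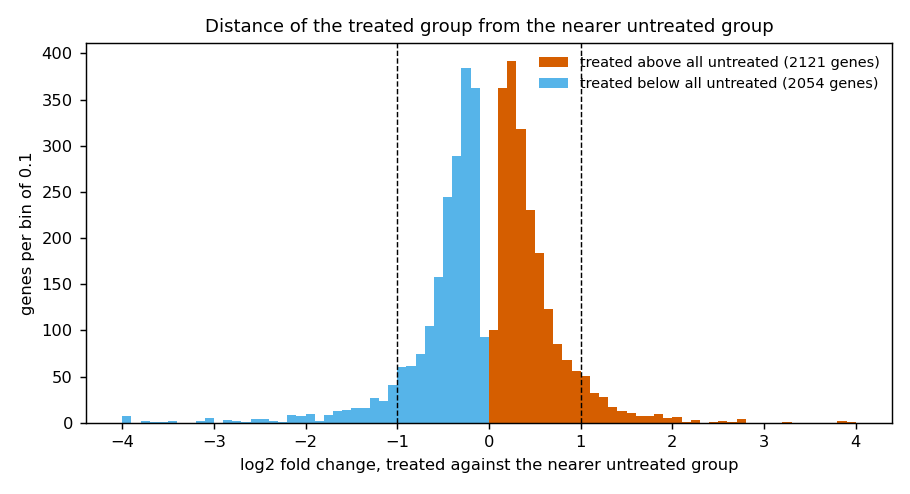
Histogram of the log2 fold change between the treated group and the nearer untreated group for the 4175 genes beyond all untreated libraries, with the number of genes per bin of 0.1 on the y axis and values beyond the axis drawn in the last bins. The 2121 genes above and the 2054 below pile up near 0, with medians of 0.36 and -0.36.

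Where the untreated groups lay relative to each other varied. Of the genes above, 721 were higher in aged than in young libraries, 494 were lower and 906 were not called. Of the genes below, 472 were higher, 919 lower and 663 not called with age. A further property was gene length as implied by the deposited FPKM values. The median length was 2608 bp among the genes above, 4917 bp among those below and 3498 bp among all tested. Of the 3201 shortest genes 26.2% lay above and 6.44% below all untreated libraries, and of the 3200 longest 9.78% lay above and 26.5% below. The median log2 change of the treated group against both untreated groups was 0.165 among these shortest and -0.174 among these longest genes, beside 0.0067 over all tested genes. The part of length in single results was not tested, and the list counts below were recomputed with a trend with length removed from each library. Those values are given, and likewise those with upper-quartile factors, where a count changed by more than 1.5 times and by at least 2 genes. A single gene's distance with the length trend removed is given where it changed by more than 1.5 times.

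**Figure D2:**
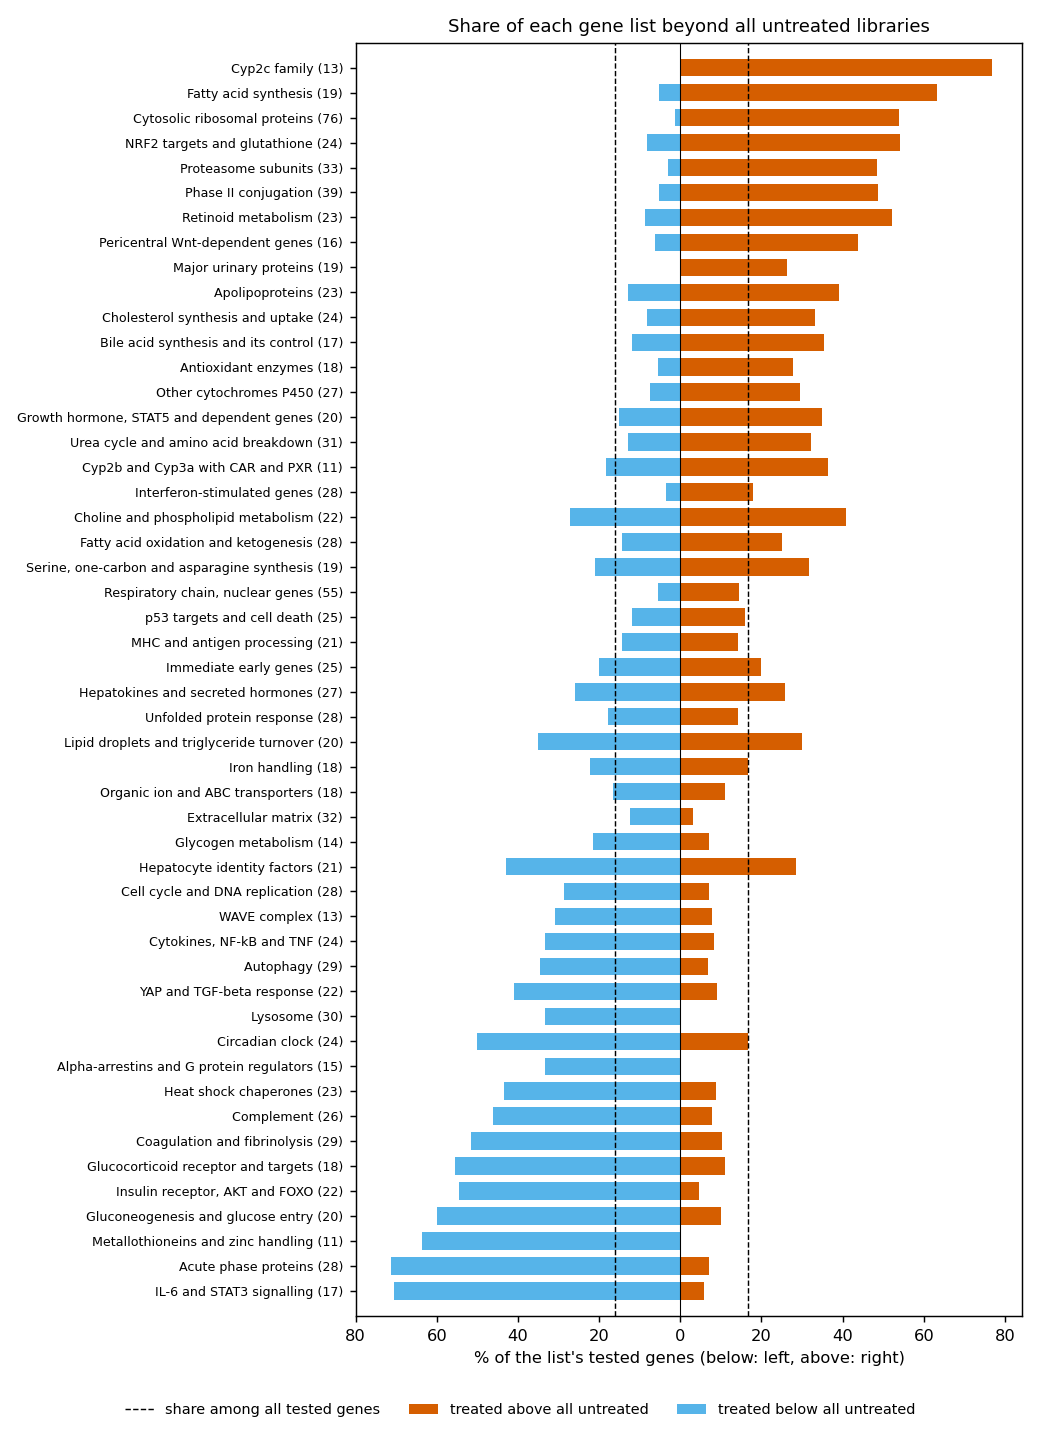
Share of the tested genes of each gene list, with their number in brackets, that lay above (right) or below (left) all untreated libraries, in percent. Dashed lines mark the shares among all tested genes, 16.6% above and 16% below, and the longest bars are those of the Cyp2c family (76.9% above), the acute phase proteins (71.4% below) and IL-6 and STAT3 signalling (70.6% below).

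The clock genes held several of the largest distances, in both directions. Of 24 measured clock genes 12 lay below and 4 above all untreated libraries. All 12 below and 3 of those above had calls against each group, and the list's median log2 change was -0.40. Among the activators, Npas2 (chr1:39193702-39363240), a DNA-binding partner of BMAL1, stood at 0.0962, 0.247 and 0.182 CPM in the young libraries, 1.03, 1.69 and 1.09 in the aged and 13.8, 11.6 and 12 in the treated ones. The treated libraries were 9.79-fold above the aged ones, the nearer group (log2 fold change 3.29, SE 0.18, adjusted p = 8.9e-20), and the aged ones lay above the young ones. Arntl (chr7:113178471-113314126), the gene of BMAL1, stood at 1.28, 0.649 and 1.24 CPM in the young libraries, 9.16, 9.02 and 9.13 in the aged and 32.4, 34.6 and 34.2 in the treated ones. It rose in the same order, young, aged, treated, and the treated group lay 3.71-fold above the aged (1.89, SE 0.09, adjusted p = 8.8e-22).

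Several repressors and output genes lay on the other side. Dbp (chr7:45705100-45710203), a transcription factor of clock output, stood at 54.6, 51.4 and 54.7 CPM in the young libraries, 50.5, 50.8 and 53.1 in the aged and 2.24, 3.09 and 2.53 in the treated ones. Per1 (chr11:69095108-69109965), a repressor of BMAL1 activity, stood at 64.5, 63.8 and 60.9 CPM in the young libraries, 59.3, 63.3 and 62.4 in the aged and 5.1, 3.39 and 2.97 in the treated ones. In both genes the untreated groups lay close together, with an aged against young change of -0.06 for Dbp and -0.03 for Per1 that was not called, and the treated libraries lay 19.6-fold and 16.1-fold below the nearer group (-4.29, SE 0.08, adjusted p = 4.4e-37, and -4.01, SE 0.09, adjusted p = 4.3e-35). Ciart, a repressor also called CHRONO, stood at 17.8, 21.1 and 21 CPM in the young libraries, 4.28, 4.04 and 3.7 in the aged and 0.218, 0.326 and 0.334 in the treated ones. Bhlhe41, the repressor DEC2, stood at 5.71, 6.93 and 6.82 CPM in the young libraries, 14.5, 14.8 and 18.6 in the aged and 0.763, 1.09 and 0.417 in the treated ones. Ciart was lower in aged than in young libraries (-2.32) and Bhlhe41 higher (1.30), and treated libraries were lowest in both (-3.76 and -3.09 from the nearer group). Outside the naming rule and chosen after their values were seen, the other genes above were Cry1, a repressor, at 0.92 from the nearer group, and Nfil3, a repressor of D-box genes, at 0.09 and without a call against each group. The labels do not say whether the 3 groups were collected at the same hour.

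E-boxes in clock gene promoters can be read in the reference sequence. The strictest E-box, CACGTG, a palindrome and so the same on both strands, occurs in 6.0% of 32851 RefSeq promoter windows (the bases from 250 to 1 before the start). By gene, in at least 1 of a gene's windows, it occurs in 9.8% of the 10243 tested genes with a window, in 9.4% of 1738 such genes above, in 13.2% of 1643 below, and in 6 of 19 clock genes with a window (Bhlhe41, Ciart, Cry1, Per1, Tef and Tspan4). Some genes have several windows, so these shares of genes are not comparable with the share of windows. The sequences of Ciart and Bhlhe41 are shown because both hold the motif and lay far below all untreated libraries, and that of Nr0b2, the nuclear receptor SHP described with the bile acid genes, because it holds the same letters and lay far above. They are GRCm38.p6 RefSeq promoter sequences, 5′ to 3′ on the gene's strand, with E-boxes in capitals, and bases inside an annotated exon or the gene's own extent are not printed, so that those of Ciart and Bhlhe41 stop short of the start while the shares above were read from whole windows. Ciart's is chr3:95882258-95882478 on the minus strand, Bhlhe41's chr6:145865559-145865670 on the minus strand and Nr0b2's chr4:133553126-133553375 on the plus strand.
Ciart: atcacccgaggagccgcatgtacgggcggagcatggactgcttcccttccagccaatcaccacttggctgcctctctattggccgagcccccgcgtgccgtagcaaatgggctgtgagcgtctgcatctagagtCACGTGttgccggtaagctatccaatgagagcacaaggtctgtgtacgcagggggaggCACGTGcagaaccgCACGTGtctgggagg
Bhlhe41: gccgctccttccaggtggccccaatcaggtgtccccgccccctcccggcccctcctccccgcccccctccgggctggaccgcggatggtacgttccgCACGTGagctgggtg
Nr0b2: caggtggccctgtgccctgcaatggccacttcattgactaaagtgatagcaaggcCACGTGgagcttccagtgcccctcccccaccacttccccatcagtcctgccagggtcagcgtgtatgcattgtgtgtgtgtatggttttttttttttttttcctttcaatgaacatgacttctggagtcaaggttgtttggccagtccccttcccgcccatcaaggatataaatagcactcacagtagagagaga
Ciart has 3 matches in this stretch and Bhlhe41 and Nr0b2 have 1 each. A match describes the letters only.

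**Figure D3:**
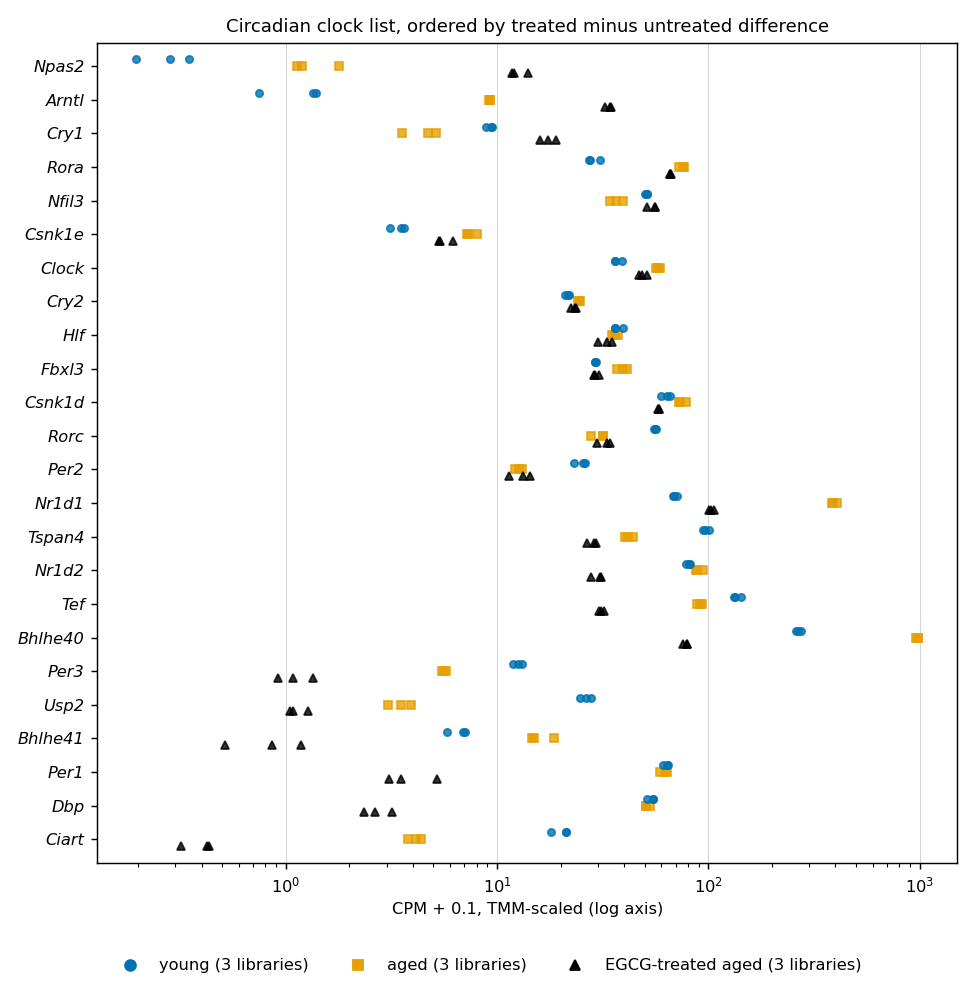
CPM + 0.1 of each of the 9 libraries for the 24 clock genes on a log axis, ordered by the difference between treated and untreated libraries, with young, aged and treated libraries as separate symbols. Npas2 and Arntl show the treated libraries to the right of all untreated ones, and Dbp, Per1, Ciart and Bhlhe41 to the left.

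Metallothioneins had the largest distances of the 30 genes that lead the rule by size, 15 in each direction. Mt2 (chr8:94172618-94173567) stood at 1039, 1013 and 967 CPM in the young libraries, 106, 95.6 and 97.3 in the aged and 2.94, 2.31 and 2.17 in the treated ones. Mt1 (chr8:94178883-94180327) stood at 1274, 1361 and 1335 CPM in the young libraries, 168, 163 and 159.6 in the aged and 4.96, 4.26 and 3.53 in the treated ones. Both genes lie side by side and fell in the order young, aged, treated, with the treated libraries 40.1-fold and 38.4-fold below the aged ones (-5.33, SE 0.06, adjusted p = 8.4e-46, and -5.26, SE 0.05, adjusted p = 2.3e-48). Of 11 measured genes of metallothioneins and zinc handling 7 lay below and 0 above, all 7 with calls against each group, and the median was -0.55. Slc39a14 (ZIP14), a zinc and iron importer of the acute phase, stood at 705 ± 13.5 CPM in young, 269 ± 6.42 in aged and 119 ± 3.01 in treated libraries. Slc30a1 (ZnT1), the zinc exporter of the plasma membrane, stood at 48.6 ± 1.18 CPM in young, 47.8 ± 0.879 in aged and 31.8 ± 2.94 in treated libraries, with the untreated groups level and the treated one below (-0.59).

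The metallothioneins and Per1 also stand in a list of known glucocorticoid receptor targets. Of its 18 measured genes 10 lay below and 2 above, and its median was -1.05. Angptl4, an inhibitor of lipoprotein lipase induced by glucocorticoids and by fasting, stood at 177, 171 and 174 CPM in the young libraries, 143, 139 and 136 in the aged and 28.2, 27.2 and 26.9 in the treated ones. It lay 5.07-fold below the aged group (-2.34, SE 0.04, adjusted p = 4.7e-39). The list's other values were not independent of the clock and metallothionein lists, since Mt1, Mt2 and Per1 are in both.

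Genes of interleukin 6 and STAT3 signalling lay below as a group. Of 17 measured genes 12 lay below all untreated libraries and 1 above, all of them called against each group, and the median change was -1.57. The median was -0.815 against aged and -2.07 against young. Among the receptors, Il6ra, which binds interleukin 6, stood at 58.8, 58.1 and 56.5 CPM in the young libraries, 46.3, 49.9 and 48.7 in the aged and 10.2, 11.1 and 10.7 in the treated ones. Lepr, the leptin receptor, stood at 7.66 ± 0.571 CPM in young, 1.93 ± 0.773 in aged and 0.473 ± 0.194 in treated libraries. Il6ra was 4.53-fold and Lepr 4.06-fold below the aged group (-2.18 and -2.02), and both were already lower in aged than in young libraries. Among the transcription factors of this response, Cebpb (chr2:167688915-167690432) stood at 371, 355 and 354 CPM in the young libraries, 336, 338 and 337 in the aged and 95.4, 101 and 93.2 in the treated ones. Cebpd stood at 30.9 ± 1.18 CPM in young, 20.6 ± 0.316 in aged and 5.69 ± 0.818 in treated libraries. The treated libraries lay 3.5-fold below the nearer group for Cebpb (-1.81, SE 0.03, adjusted p = 4.3e-39) and 3.61-fold for Cebpd (-1.85). The gene above was Pim1, a kinase, at 0.72 from the nearer group, named after its value was seen.

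The secreted acute phase proteins followed the same side. Of 28 measured genes 20 lay below and 2 above, all with calls against each group, with a median of -0.77 beside 0.0067 over all tested genes. The list's median was -0.29 against aged and -1.26 against young. For aged against young it was -1.04, with 24 genes called lower and 4 higher. Orm2, an orosomucoid, stood at 90.8, 97.9 and 96.8 CPM in the young libraries, 105, 108 and 104 in the aged and 16.1, 18.4 and 19.4 in the treated ones. The untreated groups lay close to each other and the treated one 5.3-fold below the nearer (-2.41, SE 0.05, adjusted p = 3.1e-35). Saa2, serum amyloid A, stood at 2152 ± 44.9 CPM in young, 31.8 ± 2.35 in aged and 14.5 ± 1.44 in treated libraries, and it shares near-identical sequence with Saa1, so its reads could have been split. Lcn2, lipocalin 2, stood at 422 ± 14.2 CPM in young, 33.6 ± 0.662 in aged and 10.5 ± 0.983 in treated libraries. For Saa2 and Lcn2 most of the difference lay between young and aged libraries (-6.08 and -3.65), with a further -1.13 and -1.68 from aged to treated. Cd14, the lipopolysaccharide co-receptor, stood at 3.28 ± 0.628 CPM in young, 11.6 ± 0.845 in aged and 1.3 ± 0.286 in treated libraries.

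Among inflammatory signals beyond these lists more genes lay below than above, and most lay on neither side. Of 24 measured genes of cytokines, NF-kB and TNF, 8 lay below (33.3%) and 2 above (8.33%), and the median was -0.79. It was -1.13 against aged and -0.09 against young. Icam1, an adhesion molecule for leukocytes, stood at 27.3 ± 2.59 CPM in young, 25.5 ± 1.45 in aged and 9.57 ± 0.521 in treated libraries, and Cxcl1, a neutrophil chemokine, at 48.2 ± 2.11 CPM in young, 33 ± 2.81 in aged and 14.2 ± 0.613 in treated libraries. Both were lowest in treated libraries (-1.41 and -1.22). Il1rn, the interleukin 1 receptor antagonist, lay below as well (-1.05), and Tnfaip2 lay above (0.81). Among 28 interferon-stimulated genes 5 lay above and 1 below, which became 3 below without young replicate 2. Oasl1 stood at 15 ± 0.487 CPM in young, 10.4 ± 1.42 in aged and 23.7 ± 2.29 in treated libraries, and Rsad2, the antiviral enzyme viperin, at 6.71 ± 0.818 CPM in young, 6.57 ± 0.379 in aged and 3.9 ± 0.812 in treated libraries. Of 21 genes of MHC and antigen processing 3 lay above and 3 below, with the length trend removed 0 and 3, and with upper-quartile factors 3 and 1.

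Neutrophil markers moved with these genes. Their summed level was 421 to 450 CPM in young, 55.4 to 57.4 in aged and 12.6 to 15.1 in treated libraries. Of 10 measured markers 6 lay below and 0 above, with a median of -3.24, and the sum is mostly Lcn2, which hepatocytes also transcribe in the acute phase. S100a9, a calcium-binding protein of neutrophils, stood at 7.31, 6.18 and 6.3 CPM in the young libraries, 6.66, 5.94 and 7.4 in the aged and 1.01, 0.814 and 0.556 in the treated ones. S100a8, its partner, stood at 2.06 ± 0.439 CPM in young, 2.45 ± 0.237 in aged and 0.458 ± 0.258 in treated libraries. The untreated groups were alike in S100a9 (0.02, not called), and the treated libraries lay 8.27-fold below (-3.05, SE 0.20, adjusted p = 1.7e-17). Cxcr2, the chemokine receptor of neutrophils, had 4 counts in all treated libraries together. Whether fewer neutrophils account for any part of the acute phase values was not tested.

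More genes of gluconeogenesis and glucose entry lay below than above. Of 20 measured 12 lay below and 2 above, with a median of -0.44. Pfkfb3, which makes the activator of phosphofructokinase, stood at 177, 165 and 168 CPM in the young libraries, 58.8, 58.7 and 58.1 in the aged and 9.02, 6.95 and 5.84 in the treated ones. Pck1 (chr2:173153073-173159274), the cytosolic enzyme that commits carbon to gluconeogenesis, stood at 3827, 3827 and 3721 CPM in the young libraries, 3723, 3667 and 3631 in the aged and 1531, 1534 and 1547 in the treated ones. Pfkfb3 lay 8.04-fold below the aged group (-3.01). Pck1 was nearly level between aged and young (-0.05) and lay 2.39-fold lower in treated libraries (-1.26, SE 0.02, adjusted p = 1.9e-41). Got1, an aspartate aminotransferase, and Slc37a4, the transporter of glucose 6-phosphate into the endoplasmic reticulum, lay below (-0.87 and -0.59).

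Of 22 measured genes of the insulin receptor, AKT and FOXO list, 12 lay below and 1 above, all called against each group, and the median was -0.45. Igfbp1 (chr11:7197787-7202546), an insulin-repressed target of FOXO1 that binds insulin-like growth factors, stood at 181, 177 and 184 CPM in the young libraries, 508, 501 and 495 in the aged and 47.8, 45.9 and 43.6 in the treated ones. It was higher in aged than in young libraries (1.47), and the treated libraries lay 3.95-fold below the young ones (-1.98, SE 0.03, adjusted p = 1.7e-39). Insr, the insulin receptor, stood at 179 ± 3.29 CPM in young, 175 ± 3.97 in aged and 105 ± 3.26 in treated libraries, a distance of -0.73 that was -0.48 with the length trend removed, and Foxo1 at 43.8 ± 1.2 CPM in young, 58.3 ± 1.56 in aged and 28.1 ± 2.28 in treated libraries. Trib1, a pseudokinase scaffold, stood at 108 ± 1.26 CPM in young, 123 ± 1.19 in aged and 46.6 ± 5.52 in treated libraries. The gene above was Irs1, an adaptor of the insulin receptor, at 0.58 from the nearer group, named after its value was seen.

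The genes of the series title were among or beside these. Cyfip2 was no member: it stood at 0.962, 1.08 and 0.969 CPM in the young libraries, 3.17, 3.28 and 3.77 in the aged and 1.06, 1.17 and 1.17 in the treated ones, so the treated libraries lay with the young ones, -1.59 from aged and 0.17 from young. Its paralogue Cyfip1 was a member and stood at 54.7, 46 and 47.4 CPM in the young libraries, 50.1, 50.4 and 50.6 in the aged and 39.2, 37.7 and 39.7 in the treated ones, a distance of -0.34 (SE 0.06, adjusted p = 7.6e-07). Akt1 stood at 76.7 ± 4.33 CPM in young, 47.9 ± 1.24 in aged and 43.4 ± 0.456 in treated libraries and Akt2 at 114 ± 4.69 CPM in young, 94 ± 2.47 in aged and 86.6 ± 2.29 in treated libraries, with distances of only -0.14 and -0.12 from the aged group. Akt2 was no longer called against each group in 2 of the alternative settings and Akt1 in 1. With the length trend removed the changes of Akt2 against aged and young had opposite signs, a distance of 0. Of 13 measured genes of the WAVE complex and its partners 4 lay below and 1 above, and with upper-quartile factors 2 and 2. They included Nckap1, a scaffold subunit (-0.15, and -0.09 with the length trend removed), Wasf2 (-0.16, and -0.08), whose call was lost in 9 alternative settings, and Brk1, the smallest subunit, above (0.24), whose call was lost with the length trend removed.

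Of 14 glycogen genes 3 lay below (21.4%) and 1 above (7.14%), beside 16% and 16.6% of all tested genes, and without treated replicate 1 5 lay below. Stbd1, which binds glycogen, stood at 122 ± 4.72 CPM in young, 158 ± 3.44 in aged and 50.7 ± 1.49 in treated libraries, and Gys2, the liver glycogen synthase, at 284 ± 3.19 CPM in young, 170.2 ± 2.34 in aged and 125 ± 1.18 in treated libraries. Ppp1r3b, which targets protein phosphatase 1 to glycogen, was the gene above (0.42). With the length trend removed 3 lay above and 3 below.

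Fatty acid synthesis genes lay above. Of 19 measured genes 12 lay above all untreated libraries and 1 below, all called against each group, with a median of 0.58. Mlxipl (chr5:135089890-135139768), the gene of the glucose-responsive factor ChREBP, stood at 206, 205 and 201 CPM in the young libraries, 216, 219.6 and 208 in the aged and 411, 429 and 413 in the treated ones. The untreated groups were nearly level (0.07), and the treated group lay 1.95-fold above (0.96, SE 0.03, adjusted p = 5.1e-30). Srebf1, the gene of SREBP-1, stood at 158 ± 5.66 CPM in young, 346 ± 5.35 in aged and 495 ± 1.56 in treated libraries, in the order young, aged, treated. Acsl5, an acyl-CoA synthetase, and Elovl5, a fatty acid elongase, lay above (0.51 and 0.40).

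Genes of lipid droplets and triglyceride turnover split. Of 20 measured, 6 lay above and 7 below, and with upper-quartile factors 6 and 4. Pnpla3, a lipase-like protein of lipid droplets known as a target of SREBP-1c, stood at 0.641, 0.371 and 0.454 CPM in the young libraries, 1.06, 0.404 and 1.07 in the aged and 6.03, 5.86 and 5.42 in the treated ones. Lpin1 (chr12:16535669-16653903), the phosphatidate phosphatase lipin 1, stood at 555, 574 and 560.0 CPM in the young libraries, 401, 384 and 387 in the aged and 52.9, 56.5 and 52.7 in the treated ones. Pnpla3 lay 6.8-fold above the aged group (2.77, SE 0.27, adjusted p = 3.5e-12) and Lpin1 7.23-fold below it (-2.85, SE 0.03, adjusted p = 2.1e-46). Cidea, a droplet fusion protein, stood at 0.166 ± 0.0228 CPM in young, 0.867 ± 0.146 in aged and 4.96 ± 0.261 in treated libraries, and Mogat1, a monoacylglycerol acyltransferase, at 0.621 ± 0.101 CPM in young, 0.357 ± 0.0217 in aged and 1.37 ± 0.529 in treated libraries, with a call that was lost in 2 alternative settings. Angptl8, a feeding-induced inhibitor of lipoprotein lipase, stood at 31.2, 29.8 and 31.3 CPM in the young libraries, 73.4, 67.9 and 67.9 in the aged and 181, 185 and 189.9 in the treated ones, on the opposite side from Angptl4. It lay 2.66-fold above the aged group (1.41).

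For fatty acid oxidation and ketogenesis 7 of 28 lay above and 4 below, with a median of 0.00252. The median was 0.30 against aged and -0.29 against young. Cpt1a, the enzyme that admits long-chain fatty acids to mitochondria, stood at 654, 672 and 653 CPM in the young libraries, 409, 413 and 414 in the aged and 232, 233 and 226 in the treated ones. Pdk4, a kinase that shuts off pyruvate dehydrogenase, stood at 2.18, 3.18 and 2.42 CPM in the young libraries, 12.3, 12.6 and 12.9 in the aged and 28.1, 29.96 and 28.4 in the treated ones. The treated libraries were lowest in Cpt1a (-0.84) and highest in Pdk4 (1.19), and in each gene the aged ones lay between young and treated. Ppard, the gene of the nuclear receptor PPAR delta, stood at 6.61, 6.71 and 6.82 CPM in the young libraries, 6.81, 6.19 and 6.12 in the aged and 29.3, 33.4 and 29.6 in the treated ones. Its untreated groups did not differ (-0.08, not called), and the treated group lay 4.58-fold above (2.20, SE 0.09, adjusted p = 2.2e-24). Of 24 genes of cholesterol synthesis and uptake 8 lay above and 2 below, and with upper-quartile factors 8 and 0. Against aged, 8 of these genes were called higher and 12 lower, with a median of -0.15. Against young, 20 were called higher and 2 lower, with a median of 0.69. Stard4 lay below (-0.19, and -0.13 with the length trend removed), with a call lost in 4 alternative settings. Mvd, an enzyme of the mevalonate pathway, stood at 8.94 ± 0.829 CPM in young, 29.6 ± 1.07 in aged and 43.8 ± 1.33 in treated libraries, and Sc5d, a late enzyme of sterol synthesis, at 331 ± 5.96 CPM in young, 724 ± 10.8 in aged and 971 ± 6.31 in treated libraries. In both the larger step was from young to aged (1.73 and 1.13).

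In the bile acid list the repressor and its target lay on opposite sides. Nr0b2 (chr4:133553376-133556686), the gene of SHP, a nuclear receptor without a DNA-binding domain that represses bile acid synthesis, stood at 9.65, 9.77 and 10.5 CPM in the young libraries, 14.5, 12.8 and 13.8 in the aged and 88.8, 94.4 and 94.7 in the treated ones. Cyp7a1 (chr4:6265612-6275632), the rate-limiting enzyme of bile acid synthesis, stood at 68.2, 75.3 and 75.8 CPM in the young libraries, 95.9, 109 and 102 in the aged and 24.2, 25 and 24.5 in the treated ones. The treated libraries were 6.77-fold above the nearer group for Nr0b2 (2.76, SE 0.06, adjusted p = 4.0e-35) and 2.98-fold below it for Cyp7a1 (-1.57, SE 0.05, adjusted p = 3.3e-28). Abcb11, the bile salt export pump, stood at 581 ± 11.6 CPM in young, 654 ± 9.85 in aged and 831 ± 9.89 in treated libraries, and Cyp2c70, which makes muricholic acids, at 791 ± 9.06 CPM in young, 398 ± 8.81 in aged and 920.2 ± 15 in treated libraries, a distance of 0.22 that was 0.13 with the length trend removed. In all, 6 of 17 lay above and 2 below, and with the length trend removed 4 and 4. Of 18 organic ion and ABC transporters 2 lay above, among them the cation exporter Slc47a1 (0.41), and 3 below, with the conjugate exporters Abcc3 (-0.46) and Abcc2 (-0.32) and the cholesterol exporter Abca1 (-0.44, and -0.17 with the length trend removed).

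**Figure D4:**
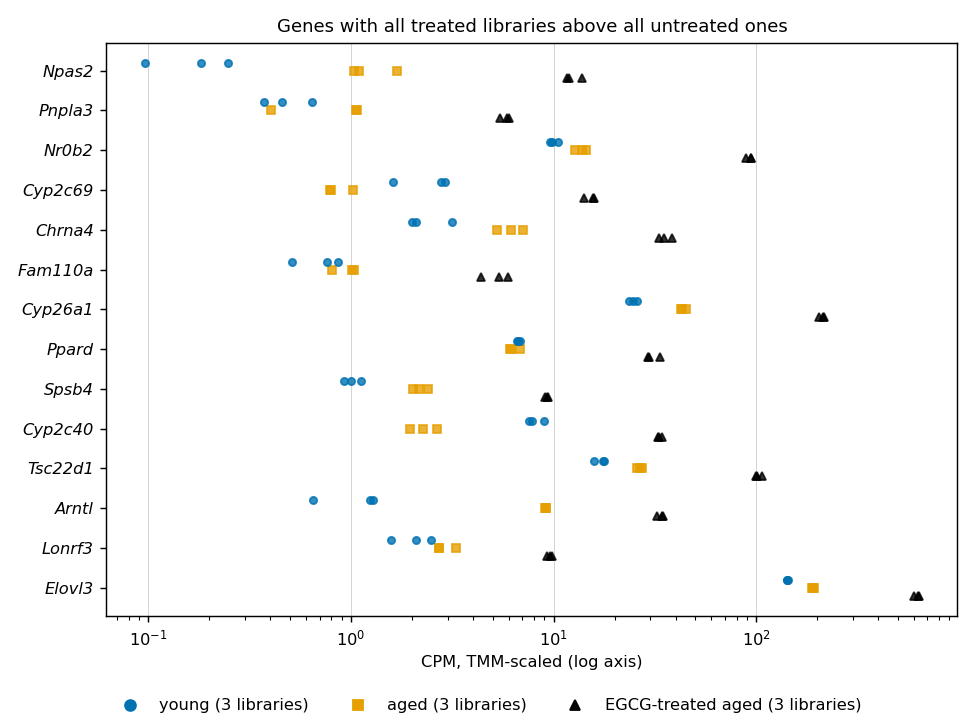
CPM of each of the 9 libraries on a log axis for 14 of the 15 genes above all untreated libraries with the largest distance from the nearer untreated group among those with calls against each group and at least 5 CPM in a group. The treated libraries lie to the right of all untreated ones by the rule that chose the genes, and the order of young and aged libraries differs between genes.

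Drug-metabolising cytochromes P450 of the Cyp2c family lay above. Of 13 measured members 10 lay above all untreated libraries and 0 below, with a median of 0.31. Their sequences are close to each other, so reads could have been split between them by the authors' counting. Cyp2c69 stood at 1.6, 2.78 and 2.91 CPM in the young libraries, 0.8, 0.783 and 1.02 in the aged and 15.9, 14.1 and 15.6 in the treated ones. Cyp2c40 stood at 7.54, 7.82 and 8.97 CPM in the young libraries, 1.96, 2.27 and 2.66 in the aged and 33, 34.3 and 32.9 in the treated ones. Both were lower in aged than in young libraries (-1.48 and -1.81), and treated libraries passed the young level by 6.22-fold and 4.11-fold (2.64 and 2.04). Cyp2c37 stood at 548 ± 4.16 CPM in young, 507 ± 7.47 in aged and 862 ± 23.2 in treated libraries and Cyp2c68 at 192 ± 1.34 CPM in young, 173 ± 5.84 in aged and 298 ± 9.36 in treated libraries, with smaller distances of 0.65 and 0.63.

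Among other P450 genes 8 of 27 lay above and 2 below. With the length trend removed 7 lay above and 5 below. Cyp26a1 (chr19:37697738-37701536), which degrades retinoic acid and is induced by it, stood at 24.7, 23.5 and 25.8 CPM in the young libraries, 45.2, 43 and 42.7 in the aged and 216, 213 and 203 in the treated ones. It lay 4.83-fold above the aged group (2.27, SE 0.04, adjusted p = 4.8e-38). Other genes of retinoid metabolism lay above too, 12 of 23 measured against 2 below, with a median of 0.25. Dhrs3 and Dhrs9, short-chain dehydrogenases that act on retinoids, stood at 61.1 ± 0.945 CPM in young, 149 ± 2.73 in aged and 260.1 ± 4.09 in treated libraries and at 0.529 ± 0.0658 CPM in young, 2.25 ± 0.402 in aged and 6.08 ± 0.42 in treated libraries. Rara, a retinoic acid receptor, stood at 9.9 ± 1.16 CPM in young, 13.7 ± 0.572 in aged and 25.6 ± 1.28 in treated libraries. In each of these the order of group means was young, aged, treated.

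In the list of Cyp2b and Cyp3a genes with their receptors CAR and PXR, 4 of 11 lay above and 2 below. Cyp3a25 stood at 406 ± 7.42 CPM in young, 543 ± 12.2 in aged and 909.7 ± 2.33 in treated libraries, and Cyp3a59 at 24.1 ± 2.56 CPM in young, 26.6 ± 1.23 in aged and 53.6 ± 0.884 in treated libraries. Those below were the shared partners of P450 enzymes. Alas1, the first enzyme of heme synthesis, stood at 1751, 1741 and 1723 CPM in the young libraries, 359.6, 348 and 340.5 in the aged and 102, 102 and 103 in the treated ones. Por, the reductase that supplies electrons to P450 enzymes, stood at 1302 ± 3.39 CPM in young, 346 ± 2.81 in aged and 209.5 ± 4.84 in treated libraries. Both fell mainly from young to aged (-2.31 and -1.91) and by a further -1.77 and -0.72 to the treated group.

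Of the detoxification lists, phase II conjugation had 48.7% above, less than the Cyp2c family (76.9%) and NRF2 targets and glutathione (54.2%). Of its 39 measured genes 19 lay above and 2 below, all called against each group, with a median of 0.40. With the length trend removed the counts were 16 and 6. The glutathione S-transferase genes Gstm2, Gsta2 and Gstm3 led it. Gstm2 stood at 62.6, 63.3 and 60.7 CPM in the young libraries, 61.2, 60.4 and 62.6 in the aged and 129, 124 and 135 in the treated ones, and Gsta2 at 36.3 ± 2.48 CPM in young, 38.9 ± 0.902 in aged and 74.2 ± 1.74 in treated libraries. Untreated groups did not differ in either (-0.02 and 0.10, not called), and the treated group lay 2.08-fold and 1.9-fold above. Of 24 NRF2 target and glutathione genes 13 lay above, 11 of them called against each group, and 2 below, with a median of 0.25. With the length trend removed 9 lay above and 4 below. Osgin1 stood at 139 ± 3.55 CPM in young, 109 ± 4.79 in aged and 212 ± 6.15 in treated libraries, and Aldh3a2, a fatty aldehyde dehydrogenase, at 261 ± 8.19 CPM in young, 271 ± 3.61 in aged and 441 ± 3.2 in treated libraries. Against the list's direction, Hmox1, heme oxygenase 1, stood at 36.5, 34.8 and 35.7 CPM in the young libraries, 59, 62.1 and 58.2 in the aged and 16.1, 16.7 and 14.2 in the treated ones. It was higher in aged than in young libraries and lowest in treated ones (-1.19, SE 0.06, adjusted p = 9.9e-21). Gss, glutathione synthetase, also lay below (-0.53).

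Antioxidant enzymes showed small distances. Of 18 measured 5 lay above and 1 below, with the length trend removed 3 and 3, and with upper-quartile factors 11 and 1. Cat, catalase, stood at 3146 ± 54.9 CPM in young, 3349 ± 37.3 in aged and 4107 ± 62.4 in treated libraries, and Sod1, superoxide dismutase 1, at 686 ± 4.77 CPM in young, 622 ± 16.2 in aged and 784 ± 22.9 in treated libraries. The call for Sod1 did not survive removal of the length trend, where its changes against aged and young had opposite signs. Selenop, the plasma selenoprotein, lay below at 5846 ± 102 CPM in young, 4899 ± 101 in aged and 3872 ± 66.9 in treated libraries.

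Growth hormone and STAT5 genes lay on both sides. Of 20 measured 7 lay above and 3 below. Socs2 and Cish are inhibitors of cytokine signalling that STAT5 induces. Socs2 stood at 25.9, 27.9 and 27.8 CPM in the young libraries, 18.3, 15.6 and 17.1 in the aged and 3.11, 2.58 and 1.81 in the treated ones. Cish stood at 35.9 ± 2.71 CPM in young, 9.35 ± 0.284 in aged and 1.59 ± 0.411 in treated libraries. They lay 6.78-fold and 5.88-fold below the aged group (-2.76, SE 0.12, and -2.55, SE 0.13). Elovl3, a very long chain fatty acid elongase whose hepatic level depends on sex and time of day, stood at 141, 144 and 143 CPM in the young libraries, 188, 193 and 192 in the aged and 629.6, 600.1 and 635 in the treated ones. Bcl6, a repressor that competes with STAT5, stood at 31 ± 0.917 CPM in young, 44.8 ± 2.07 in aged and 118 ± 5.85 in treated libraries. They lay 3.25-fold and 2.64-fold above the aged group. Of 19 major urinary protein genes 5 lay above and 0 below, and with the length trend removed 2 and 1. Mup1 stood at 239 ± 27.8 CPM in young, 157 ± 6.25 in aged and 361 ± 17.4 in treated libraries. These genes are near-identical copies, and their separate values are uncertain.

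Secreted factors lay on both sides, with 7 of 27 hepatokine genes above and 7 below, which became 4 and 9 with the length trend removed. Inhbb, an activin subunit, stood at 3.96 ± 0.574 CPM in young, 2.09 ± 0.221 in aged and 0.248 ± 0.129 in treated libraries. Lect2, a chemotactic hepatokine, stood at 78.1 ± 2.24 CPM in young, 79.7 ± 1.14 in aged and 146 ± 2.91 in treated libraries. Lect2 also belongs to a list of pericentral genes that depend on Wnt signalling, of which 7 of 16 lay above and 1 below. Lgr5, a receptor for R-spondins, stood at 4.04 ± 0.429 CPM in young, 7.78 ± 1.23 in aged and 14 ± 0.517 in treated libraries, Axin2, a feedback inhibitor of Wnt signalling, at 3.48 ± 0.445 CPM in young, 7.93 ± 1.21 in aged and 12 ± 0.917 in treated libraries, and Sp5 at 0.771 ± 0.254 CPM in young, 1.81 ± 0.596 in aged and 4.38 ± 0.936 in treated libraries. These 3 genes rose in the order young, aged, treated. Wnt2, a ligand made by sinusoidal endothelium, lay below at 1.26 ± 0.419 CPM in young, 1.77 ± 0.286 in aged and 0.731 ± 0.0759 in treated libraries, a value whose call was lost in 12 alternative settings.

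**Figure D5:**
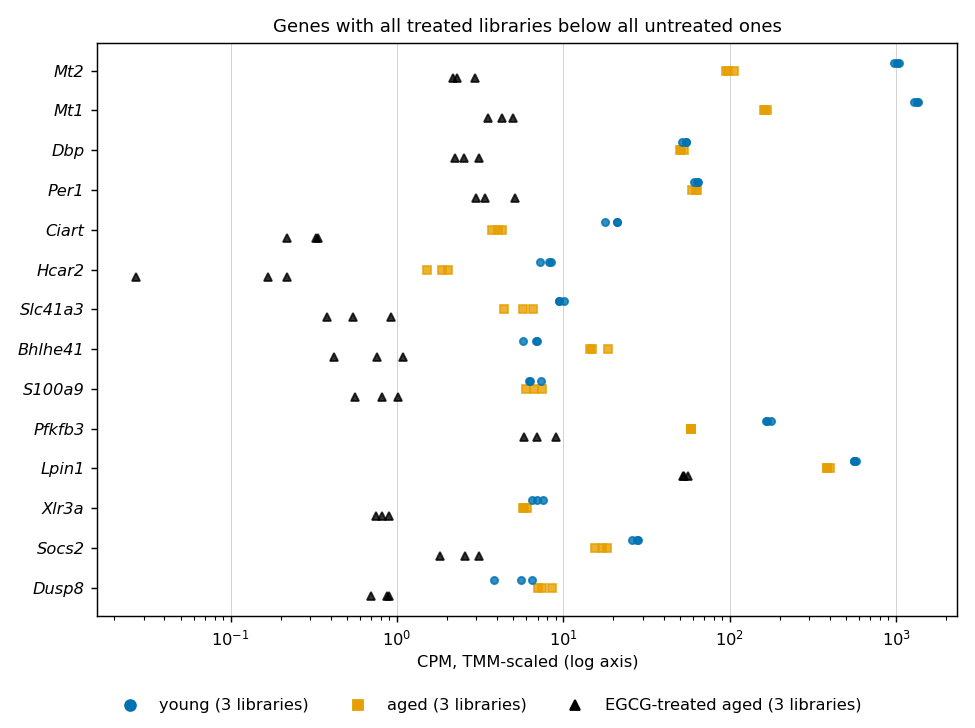
CPM of each of the 9 libraries on a log axis for 14 of the 15 genes below all untreated libraries with the largest distance from the nearer untreated group, chosen as for the genes above. Mt2 and Mt1 show the widest gap between treated and aged libraries, and young libraries lie farthest to the right for both.

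More heat shock chaperones lay below than above. Of 23 heat shock genes 10 lay below (43.5%) and 2 above, all called against each group, with a median of -0.36. Hspa8 (chr9:40801276-40805202), the constitutive HSC70 chaperone, stood at 1904, 1865 and 1919 CPM in the young libraries, 2041, 2002 and 2079.5 in the aged and 953, 963 and 965 in the treated ones. It lay 1.97-fold below the nearer group (-0.98, SE 0.02, adjusted p = 4.8e-36). Hsph1, a nucleotide exchange factor of HSP70, stood at 69.3 ± 3.5 CPM in young, 193 ± 5.38 in aged and 40.9 ± 0.956 in treated libraries, highest in aged and lowest in treated libraries. Bag3, a co-chaperone, and Dnajb4 lay below (-0.78 and -0.58). In the unfolded protein response 5 of 28 lay below and 4 above, with upper-quartile factors 4 and 7, and with the length trend removed 5 and 2. Against aged, 18 genes of this list were called higher and 6 lower, with a median of 0.21. Against young, 3 were called higher and 21 lower, with a median of -0.58. The genes named here lay below. Herpud1, a component of endoplasmic reticulum degradation, stood at 774, 755 and 769 CPM in the young libraries, 964, 977 and 948 in the aged and 257, 264 and 259 in the treated ones. The sensors Ern1 (IRE1) and Atf6 stood at 94.5 ± 1.15 CPM in young, 105 ± 1.15 in aged and 56.3 ± 4.98 in treated libraries and at 113 ± 3.51 CPM in young, 106 ± 0.464 in aged and 69.1 ± 3.8 in treated libraries, and the distance of Atf6, -0.62, was -0.40 with the length trend removed. Ppp1r15a (GADD34), which ends the phosphorylation of eIF2 alpha, lay below (-0.82).

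Autophagy and lysosome genes lay below in part. Of 29 autophagy genes 10 lay below and 2 above, and of 30 lysosome genes 10 below and 0 above. All of them were called against each group. With upper-quartile factors 8 autophagy genes lay below and 7 above, and 5 lysosome genes below and 2 above. Ulk1, the initiating kinase of autophagy, stood at 180.1, 179 and 176 CPM in the young libraries, 141, 145 and 144 in the aged and 47, 50.6 and 51.4 in the treated ones. Atg14, a subunit of the phosphatidylinositol kinase complex that starts autophagosomes, stood at 48.9 ± 1.04 CPM in young, 37.8 ± 0.907 in aged and 12.2 ± 0.132 in treated libraries. They lay 2.88-fold and 3.1-fold below the aged group (-1.53 and -1.63). Atp6v1a, a subunit of the lysosomal proton pump, stood at 49.7 ± 3.04 CPM in young, 55.6 ± 0.809 in aged and 29.9 ± 0.533 in treated libraries, and Grn, progranulin, at 339 ± 8.54 CPM in young, 177 ± 2.44 in aged and 136 ± 4.5 in treated libraries.

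Immediate early genes, which respond within minutes to stimulation, lay on both sides, with 5 of 25 above (20%) and 5 below (20%), beside 16.6% and 16% of all tested genes. Their median change was -0.67, and against the mean of both untreated groups 15 were called lower and 6 higher. Against aged the median was -1.73, with 20 called lower and 5 higher. Against young it was 0.52, with 5 called lower and 12 higher. Fos stood at 1.83, 1.92 and 1.51 CPM in the young libraries, 36.4, 34.6 and 36.9 in the aged and 72.7, 74.3 and 74.4 in the treated ones. Ier2 stood at 17.9 ± 0.75 CPM in young, 37.4 ± 2.3 in aged and 121 ± 1.64 in treated libraries. Both rose in the order young, aged, treated. Klf10 and Maff stood at 53 ± 4.92 CPM in young, 95.1 ± 0.786 in aged and 17 ± 2.37 in treated libraries and at 6.5 ± 0.365 CPM in young, 32.3 ± 0.752 in aged and 2.26 ± 0.12 in treated libraries, highest in aged and lowest in treated libraries. Of 25 p53 target and cell death genes 4 lay above and 3 below. Bbc3, the gene of the death-promoting protein PUMA, stood at 0.433 ± 0.152 CPM in young, 6.07 ± 1.12 in aged and 19.4 ± 0.21 in treated libraries, and Gadd45b, a stress-response gene, at 4.99 ± 0.651 CPM in young, 17.3 ± 0.893 in aged and 0.967 ± 0.18 in treated libraries. Proliferation transcripts were rare. Top2a stood at 0.878 ± 0.516 CPM in young, 1.13 ± 0.187 in aged and 0.274 ± 0.167 in treated libraries and Mki67 at 1.08 ± 0.484 CPM in young, 1.53 ± 0.318 in aged and 0.345 ± 0.243 in treated libraries, with calls lost in 2 and 1 alternative settings. In all 8 of 28 cell cycle genes lay below, 4 of them with calls against each group, and 2 above, and with upper-quartile factors 4 and 2. Rgs16, a regulator of G protein signalling known to respond to feeding time in liver, stood at 73.6, 66.5 and 66.5 CPM in the young libraries, 332, 329 and 325 in the aged and 16.4, 16.7 and 15.7 in the treated ones. It lay 4.23-fold below the young group (-2.08), while aged libraries were the highest.

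In the plasma cascades made by hepatocytes more genes lay below than above, by small distances. Of 26 complement genes 12 lay below and 2 above, and of 29 coagulation and fibrinolysis genes 15 below and 3 above, with medians of -0.21 and -0.23. With upper-quartile factors the genes below numbered 7 and 9. C3, the central component, stood at 11981 ± 113 CPM in young, 10424 ± 83.3 in aged and 8252 ± 57 in treated libraries. Fgb, a fibrinogen chain, stood at 15634 ± 105 CPM in young, 7015 ± 144 in aged and 5729 ± 130.5 in treated libraries, with most of its fall between young and aged (-1.16) and a distance of -0.29 that was -0.46 with the length trend removed. Thbd, thrombomodulin, lay below (-1.57).

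Apolipoproteins divided by gene. Of 23 measured 9 lay above and 3 below, and with the length trend removed 7 and 6. Apoc1 stood at 1618 ± 86.1 CPM in young, 1372 ± 22.4 in aged and 2385 ± 141 in treated libraries and Apoc4 at 181 ± 9.65 CPM in young, 152 ± 2.3 in aged and 288 ± 17.1 in treated libraries, neighbours in a cluster whose reads may overlap. The distance of Apoc1 was 0.56, and 0.36 with the length trend removed. Apob, the long structural gene of very low density lipoprotein, stood at 7088, 7004 and 7081 CPM in the young libraries, 6921, 7091 and 7268 in the aged and 5247, 5165 and 5024 in the treated ones. Its untreated groups were level (0.01, not called), and the treated libraries lay 1.37-fold below (-0.46), a distance that was -0.16 with the length trend removed. Of 22 genes of choline and phospholipid metabolism 9 lay above and 6 below. Agpat2, an acyltransferase of phospholipid synthesis, stood at 132, 144 and 139 CPM in the young libraries, 149, 138 and 126 in the aged and 289, 287 and 300.2 in the treated ones. Gpcpd1, which splits glycerophosphocholine, stood at 345 ± 1.56 CPM in young, 111 ± 2.89 in aged and 36.4 ± 1.29 in treated libraries. Agpat2 was level between untreated groups (-0.01), and Gpcpd1 fell in the order young, aged, treated.

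In amino acid metabolism 10 of 31 urea cycle and breakdown genes lay above and 4 below, and with upper-quartile factors 16 and 1. Nags, which makes the activator of the urea cycle, stood at 57.1 ± 2.54 CPM in young, 64.2 ± 1.59 in aged and 99.3 ± 1.21 in treated libraries. Cps1, the first enzyme of the cycle, stood at 6580.2 ± 55.3 CPM in young, 5665 ± 54.4 in aged and 4374 ± 49.5 in treated libraries, on the other side, with a distance of -0.37 that was -0.25 with the length trend removed. Of 19 genes of serine and one-carbon metabolism 6 lay above and 4 below. Mat1a, the liver methionine adenosyltransferase, stood at 5078 ± 29.97 CPM in young, 2765 ± 5.74 in aged and 1962 ± 16.9 in treated libraries. Of the iron genes 3 of 18 lay above and 4 below, and with upper-quartile factors 6 and 3. Hjv, hemojuvelin, a co-receptor that controls hepcidin, stood at 31.1 ± 0.81 CPM in young, 53.3 ± 1.17 in aged and 95.7 ± 3.72 in treated libraries, and Tfrc, the transferrin receptor, at 36 ± 1.19 CPM in young, 33.6 ± 0.702 in aged and 24.7 ± 1.71 in treated libraries.

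Transcription factors that define hepatocytes were divided, 6 of 21 above and 9 below. Foxa3 and Foxa2, related pioneer factors, lay on opposite sides, Foxa3 at 65 ± 3.78 CPM in young, 77 ± 1.2 in aged and 21.8 ± 1.98 in treated libraries and Foxa2 at 21.5 ± 1.05 CPM in young, 18.2 ± 1.22 in aged and 35.4 ± 2.15 in treated libraries. Onecut1 (HNF6) stood at 32.6, 30.3 and 33 CPM in the young libraries, 12.5, 11.6 and 11.6 in the aged and 3.24, 4.26 and 3.31 in the treated ones. It fell in the order young, aged, treated, and the treated group lay 3.3-fold below the aged (-1.72). Plasma protein genes themselves showed small distances. Of 24, 7 lay above and 9 below, with a median of 0.05, with upper-quartile factors 12 and 7, and with the length trend removed 4 and 11 with a median of -0.07. Their largest distances were those of Hpx, hemopexin (-0.48), and Apob (-0.46).

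Markers of other cell types were read from summed levels. Endothelial markers summed to 245 to 251 CPM in young, 496 to 516 in aged and 213 to 222 in treated libraries, and 12 of 20 lay below all untreated libraries with 0 above. Lyve1, a hyaluronan receptor of sinusoidal and lymphatic endothelium, stood at 3.5, 4.67 and 3.97 CPM in the young libraries, 4.41, 4.9 and 4.36 in the aged and 1.25, 0.38 and 0.5 in the treated ones. Pecam1 (CD31) stood at 12.4 ± 1.33 CPM in young, 20.8 ± 1.06 in aged and 6.96 ± 0.725 in treated libraries. Both lay below the young group (-2.50 and -0.83). Col4a1, a basement membrane collagen, was below too (-1.04), one of 4 of 32 matrix genes below with 1 above. Of 22 genes of the YAP and TGF-beta response 9 lay below and 2 above, among them Tead1, the DNA-binding partner of YAP, below (-0.75, and -0.49 with the length trend removed), and Ajuba above (0.97).

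Macrophage and stellate markers, in contrast, lay within the untreated range except Tagln. Kupffer and macrophage markers summed to 228 to 234 CPM in young, 1120 to 1140 in aged and 449 to 468 in treated libraries, with 0 of 20 above and 0 below. Of 18 stellate and fibroblast markers 1 lay below, without a call against each group, and 0 above. Erythroid markers lay above, with sums of 288 to 295 CPM in young, 273 to 275 in aged and 401 to 412 in treated libraries, and 5 of 7 beyond the untreated range. Hbb-bs, adult beta globin, stood at 81.9 ± 4.86 CPM in young, 92 ± 3.62 in aged and 149.8 ± 2.43 in treated libraries, and globin copies share reads. Its distance was 0.70, and 0.33 with the length trend removed. Blood content was not tested as a part of any other result. Of 14 lymphocyte markers Cd8a and Nkg7 lay above, both under 1 CPM, and Nkg7 had no call against each group. Of these markers 5 lay above without aged replicate 1 and 4 without treated replicate 1.

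Ribosomal protein genes are short, and their count changed when the length trend was removed. Such removal also takes out any shift that short genes share, and the part of length itself was not tested. Of 76 measured 41 lay above and 1 below, with a median of 0.17. With the length trend removed 7 lay above and 27 below, and the median turned to -0.08. Upper-quartile factors gave 62 above and 0 below, and without treated replicate 3 4 lay below. Rpl21 stood at 40.4 ± 0.128 CPM in young, 38.6 ± 2.16 in aged and 54.2 ± 4.95 in treated libraries, the list's largest distance at 0.42. Proteasome subunits gave 16 of 33 above and 1 below, 8 and 2 with the trend removed, and 27 and 0 with upper-quartile factors. Psmd14, a deubiquitinase of the proteasome lid, stood at 43.2 ± 1.43 CPM in young, 35.4 ± 0.565 in aged and 54 ± 2.24 in treated libraries. Nuclear genes of the respiratory chain gave 8 of 55 above and 3 below, and 3 and 12 with the trend removed, where the median moved from 0.14 to -0.10. Before removal the median was 0.35 against aged and -0.08 against young. Upper-quartile factors gave 24 above and 2 below, and without treated replicate 3 5 lay below. The side that held more genes turned for the ribosomal and respiratory chain lists once the trend was removed.

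Several of the genes farthest from the untreated range belonged to no list. Above it, Chrna4, a nicotinic acetylcholine receptor subunit, stood at 3.14, 2.01 and 2.09 CPM in the young libraries, 7.07, 6.19 and 5.24 in the aged and 33.1, 35.3 and 38.2 in the treated ones. Tsc22d1, a TGF-beta-stimulated leucine zipper protein, stood at 17.7, 17.6 and 15.8 CPM in the young libraries, 26.6, 27.4 and 25.8 in the aged and 101, 100.3 and 106 in the treated ones. Chrna4 and Tsc22d1 were higher in aged than in young libraries, and treated libraries were highest in both, by 5.77-fold and 3.86-fold from the nearer group. Spsb4, a ubiquitin ligase adaptor (2.08), Fam110a (2.46) and Lonrf3 (1.72) were also among the 15 largest above.

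Below the range, Hcar2, a receptor for the ketone body beta-hydroxybutyrate and for niacin, stood at 8.24, 7.23 and 8.45 CPM in the young libraries, 1.52, 2.02 and 1.87 in the aged and 0.218, 0.0271 and 0.167 in the treated ones. Slc41a3, a magnesium transporter, stood at 9.46, 9.43 and 10.03 CPM in the young libraries, 4.39, 5.68 and 6.59 in the aged and 0.545, 0.38 and 0.917 in the treated ones. Both were lower in aged than in young libraries (-2.14 and -0.79), with the treated libraries lowest. Xlr3a (-2.83) and Dusp8, a MAP kinase phosphatase (-2.68), were also among the 15 largest below.

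A few genes were present on one side only, and were chosen after their values were seen. Klhdc7b had 61 counts over the treated libraries and 0 in the untreated ones, at least 22.1-fold higher than aged and 20.3-fold higher than young against a floor of 3 counts over a group. Fmr1nb had 0 counts over the treated libraries, 148 over the aged and 176 over the young ones, at least 45.5-fold and 58.7-fold lower. Il1r2, the decoy receptor for interleukin 1, had 0 counts over the treated libraries, 20 over the aged and 41 over the young, at least 6.1-fold and 13.7-fold lower. These bounds use plain library totals without TMM scaling, unlike the other folds given here, and cover counting error only.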

How the data were processed

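Per the file headers, 2 tables were deposited for 16231 genes, raw counts and FPKM values, each with 1 column for each of the 9 libraries. GRCm38 and mm10 are the builds in the submitters' processing notes. Aligner, counter, gene annotation and strandedness: not given in the sources used here. RNA was purified with a column kit and libraries were made with a SMARTER kit, per the labels' protocols. Counts were tested here as deposited in R 4.3.3 with edgeR 4.0.16: TMM scaling, genes with at least 10 counts in 3 libraries, quasi-likelihood fits of all 9 libraries with 1 coefficient per group, two-sided tests, and Benjamini-Hochberg adjustment over 12801 genes at 0.05. Each adjusted p-value printed comes from it. CPM are counts relative to the TMM-scaled library total, and ± is the SD of 3 libraries. The deposited FPKM served as an alternative on a log2 scale with limma 3.58.1 and for gene length, which they imply as a whole number to within 0.01 bp for 99.83% of genes.

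Genes were named by a rule: among genes beyond all untreated libraries with calls against aged and against young and a group mean of 5 CPM or more, the 15 higher and 15 lower ones farthest from the nearer group, up to 4 such genes of each list whatever their level or call, and Cyfip1, Cyfip2, Akt1 and Akt2. A few genes that this rule picks are not reported here. Unnamed gene models and immune receptor segments were not named, and other genes are said to have been chosen after their values were seen. The genes and lists were chosen with earlier results of these data known. Lists are described by counts and medians, without a test. Gene coordinates were taken by symbol from RefSeq (GRCm38), and promoter sequences are from RefSeq on GRCm38.p6. The exons left out of the printed promoter stretches are those of GENCODE M21. Of the 4175 genes beyond the untreated range, 4169 were found in RefSeq by symbol. Alternatives were other size factors, other filters, DESeq2 1.42.0, FPKM, a replicate block, each library left out in turn and, chosen after seeing the data, removal of a smooth trend of each library with gene length. Between libraries of 1 group the counts differed by more than sampling, with 3.76 to 4.74 as chi-square over its degrees of freedom. The steps were tested on simulated data. Reads of near-identical, overlapping or antisense genes could have been split or shared by the authors' counting, so values of such genes are uncertain.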

Additional observations from a re-analysis of the deposited data

How the results depend on the processing

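Counts of calls stayed within 1.5 times of the reported ones under each alternative run. Over size factors, filters, DESeq2, FPKM, the replicate block and removal of the length trend, calls against both untreated groups numbered 7374 to 8008, calls against each group 3568 to 4284, and genes beyond all untreated libraries 3877 to 4548. Leaving out each library in turn gave 7171 to 7635, 3618 to 3793 and 4347 to 4703, and 7387 to 8131 calls against aged, 7587 to 7977 against young, 8283 to 8874 between aged and young, and 425 to 461 genes at least 2-fold away. That last count, 424, fell to 107 with log2(FPKM + 1), 36 above and 71 below, since that pseudocount shrinks low genes, and was 1104 at 1.5-fold. The share of higher calls moved with scaling: against young it was 49% and became 65.6% with upper-quartile factors and 67.2% with log2(FPKM + 0.1). Among genes beyond the untreated range it was 50.8% and became 68.5% and 63.2%, and at 2-fold 47.6%, 59.5% and 51.1%, with 33.6% for log2(FPKM + 1). Upper-quartile factors moved the median of all genes against both groups from 0.0067 to 0.12.

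With the length trend removed, 3227 of 3877 genes were shared on the same side, which is 77.3% of the reported set and 83.2% of that one. Sod1, Ndufa6 and Akt2 then had changes of opposite sign against aged and young, a distance of 0, in place of 0.19, 0.24 and -0.12. Of 228 named genes with calls against each group, 28 lost the call or changed sign in at least 1 setting, Sod1 and Ndufa6 among them. Calls were lost most often for Wnt2, Wasf2, Tap1, Ccne2 and Rom1, and the cause was not tested.

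Replicate numbers in the labels gave no pairing: deviations of same-numbered libraries correlated at -0.0472 to 0.0291 and those of others at -0.0442 to 0.0676. With the replicate block 7655 genes were called against both groups, 7964 against aged, 7921 against young, 8766 between aged and young and 3876 against each group. Low counts limit genes under 1 CPM, and intervals and floors cover counting error only.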
